A study of Mus musculus with 12 samples.

Results

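Among the 750 endogenous probes of the panel, 42 were for chemokine genes and chemokine receptor genes, 33 ligands and 9 receptors. They were taken by symbol, as each endogenous probe whose name starts with Ccl, Cxcl, Xcl or Cx3cl, or with Ccr, Cxcr, Xcr or Cx3cr, followed by a digit. Cxcl12, Cxcr4 and Cxcl15 were left out. The rule reads symbols and no measured value.

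RNA came from snap-frozen tumours of MMTV-PyMT mice, whose mouse mammary tumour virus promoter drives a viral oncogene, polyoma middle T, in the mammary epithelium, and target transcripts were enriched by multiplex amplification before barcoded probes were counted (nCounter, NanoString). All 12 libraries shared this genotype and the PTX label, which the series title makes the chemotherapy, and the labels give no age, dose or time. PTX alone had 2 libraries, and PLX+PTX, with the CSF1R inhibitor added, had 2. An antibody against PD-1 was added to PLX+PTX in the groups labelled R (3 libraries) and NR (3), suffixes that the labels do not expand, and an antibody against PD-L1 in PLX+PTX+aPD-L1 (2).

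Chemokines are small proteins that draw leukocytes along a gradient by binding receptors of the G protein-coupled class on the cell surface. Ligands such as CCL2 bring monocytes into tumours, where these become macrophages, CXCL9 and CXCL10 bring activated T cells, and CCL19 and CCL21 guide T cells and dendritic cells into lymphoid tissue. Most receptors are carried by the leukocytes themselves, while ligands are made by macrophages, lymphocytes, vessel cells, fibroblasts and epithelium.

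Levels are counts scaled by the 20 housekeeping probes of each library (scaled counts), and a library's detection limit is 2 SD above the mean of the 8 negative-control probes. Total endogenous counts were 98741 to 141021 in 3 libraries, both of PLX+PTX+aPD-L1 and R replicate 2, and 298726 to 531086 in the other 9. Scaling lifts the background of a dim library. The detection limits ran from 13.3 scaled counts in NR replicate 3 to 65.5 in PLX+PTX+aPD-L1 replicate 2, so passing a limit does not rank levels between libraries. The scaled negative controls averaged 27.2 ± 7.50 in PLX+PTX+aPD-L1, 20.9 ± 2.63 in R, 14.8 ± 2.43 in PLX+PTX, 12.4 ± 2.39 in PTX and 11.9 ± 2.28 in NR (SD over libraries, n = 2, 3, 2, 2 and 3). The epithelial marker Epcam lay above the limit in all 12 libraries, with 5049 to 8314 scaled counts. Probes bind with unequal efficiency, so levels are compared between libraries and not between genes. The labels name no animals, so whether libraries of 1 group come from different mice is unknown, and the p-values reflect the spread among these libraries alone, which may be technical.

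Most chemokine probes were near the background of the assay. The members took 0.616% to 1.16% of the endogenous counts of a library. Only 4 of 42 lay above the limit in all 12 libraries, namely Ccl9, Cxcl14, Cx3cl1 and Cxcl16, and 14 did so in 6 or more. In no library was any of 15 members above the limit. Over the whole panel, 329 of 750 probes were above the limit in all libraries, 462 in 6 or more and 148 in none. The number of members above the limit ran from 6 in PLX+PTX+aPD-L1 replicate 2 to 23 in PTX replicate 1 and PLX+PTX replicate 2, and it was 9 in R replicate 2 and in PLX+PTX+aPD-L1 replicate 1.

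**Figure D1:**
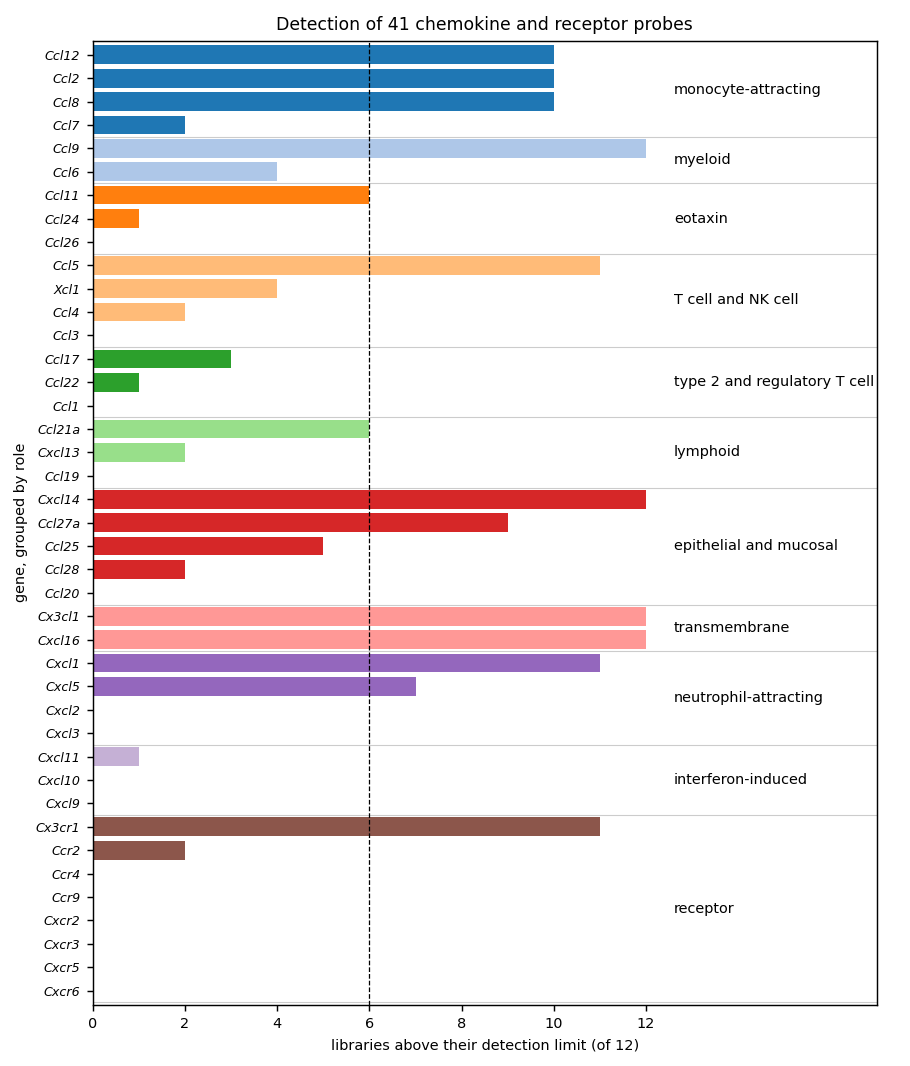
Number of libraries, of 12, in which each of 41 of the 42 probes lay above its library's detection limit, with genes on the vertical axis grouped by role and a dashed line at 6 libraries. Bars of Ccl9, Cxcl14, Cx3cl1 and Cxcl16 reach 12, and 15 genes have no bar.

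Of the 4 monocyte-attracting ligands, Ccl2, Ccl8 and Ccl12 were each above the limit in 10 libraries. Ccl2 and its relatives Ccl7 and Ccl12 are ligands of the monocyte receptor CCR2 in the mouse, and Ccl8 is encoded beside them. Ccl2 gave 192 and 47.9 scaled counts in the PTX libraries, 57.0 and 56.6 in PLX+PTX and 39.6, 69.0 and 41.3 in R. It gave 60.0, 51.1 and 41.8 in NR and 27.9 and 49.1 in PLX+PTX+aPD-L1, where neither library passed its limit. PTX replicate 1 stood above the other 11 libraries, which overlapped across all groups. Ccl7 was above the limit only in PTX replicate 1 and PLX+PTX replicate 2, and its 64.5 scaled counts in the first of these were also its highest.

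Ccl8 and Ccl12, neighbours on chromosome 11, had unlike patterns. Ccl8 gave 379 and 184 scaled counts in PTX, 72.2 and 242 in PLX+PTX, and 43.8 and 60.7 in PLX+PTX+aPD-L1. Its values were 130.1, 47.3 and 92.3 in R and 68.5, 56.6 and 125 in NR. The PTX libraries overlapped those of PLX+PTX and lay above all libraries that had an antibody. Ccl12 gave 55.6 and 47.9 in PTX, 92.1 and 115 in PLX+PTX, and 35.8 and 37.6 in PLX+PTX+aPD-L1. In R it gave 65.0, 90.6 and 57.7, and in NR 94.7, 62.1 and 69.0. Both PLX+PTX libraries were above both PTX libraries for Ccl12, and the PLX+PTX+aPD-L1 libraries were the lowest of the 12 and below their own limits.

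The promoters of these neighbours are shown because the PTX to PLX+PTX difference of Ccl12 had the opposite sign to that of Ccl8. Each runs from 250 bases before the annotated gene start to 50 after it, on the plus strand, and both come from RefSeq (GRCm38.p6), at chr11:82101595-82101894 for Ccl12 and chr11:82114935-82115234 for Ccl8. No base is in capitals, since neither window held any of the 3 motifs searched further on.
Ccl12: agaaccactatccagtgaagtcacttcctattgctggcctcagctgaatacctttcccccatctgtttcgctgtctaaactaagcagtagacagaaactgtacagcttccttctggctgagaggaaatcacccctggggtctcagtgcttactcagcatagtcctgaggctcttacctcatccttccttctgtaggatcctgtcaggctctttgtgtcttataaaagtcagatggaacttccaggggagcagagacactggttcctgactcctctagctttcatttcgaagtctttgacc
Ccl8: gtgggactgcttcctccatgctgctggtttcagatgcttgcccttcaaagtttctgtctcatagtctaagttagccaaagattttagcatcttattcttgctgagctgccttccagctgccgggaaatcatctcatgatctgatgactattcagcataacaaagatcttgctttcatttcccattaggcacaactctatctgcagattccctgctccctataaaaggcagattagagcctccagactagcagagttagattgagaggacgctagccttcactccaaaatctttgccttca

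Ccl9 and Ccl6 are rodent CC ligands of myeloid cells that act on CCR1. Ccl9 gave 784 and 206 scaled counts in PTX, 114 and 260.3 in PLX+PTX and 206, 215 and 103 in R. It gave 178, 238 and 140.0 in NR and 69.0 and 246 in PLX+PTX+aPD-L1. As for Ccl2, PTX replicate 1 was the highest library, and the other 11 overlapped. Ccl6 was above the limit in 4 libraries, both of PTX, 1 of PLX+PTX and 1 of NR, with 12.3 to 46.7 scaled counts over all libraries. Among the eotaxins, which draw eosinophils through CCR3, Ccl11 gave 93.4 and 55.2 in PTX and 24.7 and 49.6 in PLX+PTX. Its values were 32.5, 33.5 and 17.3 in R, 13.5, 33.8 and 28.6 in NR, and 14.6 and 43.3 in PLX+PTX+aPD-L1. The PTX libraries were the highest of the 12 for Ccl11, by a narrow margin for replicate 2. Ccl24 passed its limit in 1 library and Ccl26 in none, and neither was tested.

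Ccl5, made by T cells, NK cells and others, was the one well detected ligand of lymphocytes. It gave 38.9 and 46.4 scaled counts in PTX, 75.0 and 67.9 in PLX+PTX, and 134, 51.2 and 57.7 in R. In NR it gave 49.9, 29.9 and 51.5, and in PLX+PTX+aPD-L1 39.8 and 95.4. R replicate 1 was the highest library, and R and NR overlapped by a small margin at 51.2 and 51.5. Of the related ligands, Ccl4 passed the limit in 2 libraries and Ccl3 in none. Xcl1, which draws cross-presenting dendritic cells, passed in 4, namely both PLX+PTX libraries, 1 of R and 1 of NR, with a highest value of 43.1 in R replicate 1. Of the ligands of type 2 and regulatory T cells, Ccl17 passed in 3 libraries, Ccl22 in 1 and Ccl1 in none.

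Ccl21a was the lymphoid ligand with the widest range, and it was highest in the PLX+PTX+aPD-L1 tumours. CCL21 protein, which is encoded by more than this gene copy, binds CCR7 and is made by lymphatic vessels and lymph node stroma. Ccl21a gave 146 and 269 scaled counts in PLX+PTX+aPD-L1. The PTX libraries gave 10.0 and 95.7, and those of PLX+PTX 22.8 and 94.0. In R it gave 29.9, 13.8 and 33.6, and in NR 11.8, 13.4 and 39.0. Both PLX+PTX+aPD-L1 libraries were above the other 10, and the R and NR libraries overlapped. The raw counts behind these values were 110 and 93 in PLX+PTX+aPD-L1, 18 and 130 in PTX, 24 and 108 in PLX+PTX, 34, 7 and 35 in R and 14, 17 and 56 in NR. Before scaling, then, the PLX+PTX+aPD-L1 libraries did not stand above PTX replicate 2. Ccl21a has near-identical gene copies in the mouse, so which copies the probe counted is uncertain.

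The promoter of Ccl21a is shown because it was the only member past the threshold in any comparison. The window, from RefSeq (GRCm38.p6), is chr4:42773942-42774241 on the minus strand and held none of the motifs searched.
Ccl21a: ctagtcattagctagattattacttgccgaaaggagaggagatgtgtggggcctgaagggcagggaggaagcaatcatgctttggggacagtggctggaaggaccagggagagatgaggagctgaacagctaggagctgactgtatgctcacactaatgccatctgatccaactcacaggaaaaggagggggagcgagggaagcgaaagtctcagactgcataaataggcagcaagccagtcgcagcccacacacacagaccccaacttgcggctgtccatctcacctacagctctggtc

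The other lymphoid ligands were near background. Ccl19, the second ligand of CCR7, was above the limit in no library and ran from 11.8 to 46.2 scaled counts, with raw counts of 14 to 24. Cxcl13, which draws B cells through CXCR5, passed the limit in 1 PTX and 1 PLX+PTX library.

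Cxcl14 and Ccl27a, ligands of epithelial origin, were well detected. Cxcl14 gave 200.2 and 205 scaled counts in PTX, 88.3 and 171 in PLX+PTX, and 109, 110.3 and 96.1 in R. It gave 94.7, 129.8 and 114 in NR and 45.1 and 121 in PLX+PTX+aPD-L1. Both PTX libraries were above the other 10, and the remaining groups overlapped. Ccl27a, a ligand of the skin-homing receptor CCR10, stayed within 29.8 to 53.5 in all 12 libraries. It gave 45.0 and 49.3 in PTX, 40.8 and 32.2 in PLX+PTX, and 43.9, 41.4 and 29.8 in R. In NR it gave 47.3, 53.5 and 31.3, and in PLX+PTX+aPD-L1 49.1 and 52.0. The scaled PTX and PLX+PTX+aPD-L1 values of Ccl27a were above all those of PLX+PTX and R, and NR overlapped every group. For PLX+PTX+aPD-L1 this order held only after scaling, as its raw counts were 37 and 18 against 43 and 37 in PLX+PTX and 50, 21 and 31 in R. PLX+PTX+aPD-L1 replicate 2 and R replicates 2 and 3 did not pass their limits for Ccl27a. A near-identical copy exists for this gene as well. Ccl25, a ligand of the gut receptor CCR9, passed the limit in 5 libraries, Ccl28 in 2, both of NR, and the CCR6 ligand Ccl20 in none. Ccl28 passed at 14.6 scaled counts in NR replicate 3, whose limit was the lowest, and not at 22.1 in PTX replicate 2.

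The transmembrane chemokines, which are both tethered to cells and shed, were above the limit in every library. Cx3cl1 gave 453 and 456 scaled counts in PTX, 423 and 378 in PLX+PTX, and 386, 323 and 405 in R. Its values were 352, 451 and 434 in NR and 264 and 327 in PLX+PTX+aPD-L1. Over the 12 libraries its lowest and highest scaled counts were 264 and 456. Cxcl16, the ligand of CXCR6 and a scavenger receptor, gave 386 and 319.5 in PTX, 319 and 338 in PLX+PTX and 348, 126 and 420.0 in R. It gave 318, 203 and 247 in NR and 215 and 231 in PLX+PTX+aPD-L1. R replicate 2, a library of low signal, was the lowest for Cxcl16, and both PLX+PTX+aPD-L1 values were below both PLX+PTX values. Their receptors differed in detection. Cx3cr1, which marks monocytes and macrophages, passed in 11 libraries, and Cxcr6 of T cells in none.

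Neutrophil-attracting ligands of CXCR2 were present at low levels. Cxcl1 gave 88.4 and 62.6 scaled counts in PTX, 52.2 and 44.4 in PLX+PTX, and 39.6, 51.2 and 41.3 in R. It gave 55.8, 53.5 and 34.8 in NR and 49.1 and 57.8 in PLX+PTX+aPD-L1. Both PTX values were above the other 10. Cxcl5 gave 20.6 and 25.0 in PTX, 34.2 and 22.6 in PLX+PTX and 21.1, 33.5 and 26.0 in R, none of the last above its limit. Its values were 26.2, 37.0 and 35.5 in NR and 30.5 and 20.2 in PLX+PTX+aPD-L1, where neither library passed its limit. The groups overlapped for Cxcl5. Cxcl2 and Cxcl3 were above the limit in no library, with raw counts of 8 to 23 and 8 to 27.

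Stretches of 3 of these promoters are shown because the genes are neighbours on chromosome 5 that share a motif while 1 of them was detected. They are bases 151 to 200 of the 300-base windows of RefSeq (GRCm38.p6), all on the plus strand, at chr5:90891145-90891194 for Cxcl1, chr5:90903799-90903848 for Cxcl2 and chr5:90786001-90786050 for Cxcl3. Capitals mark the core of the kappaB motif, GGNNTTTCC or its reverse complement.
Cxcl1: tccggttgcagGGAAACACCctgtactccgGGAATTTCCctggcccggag
Cxcl2: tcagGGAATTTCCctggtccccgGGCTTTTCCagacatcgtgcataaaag
Cxcl3: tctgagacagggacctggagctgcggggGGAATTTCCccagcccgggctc
Of the 42 members, 30 had a promoter in the table, and 7 of these (23.3%) held the kappaB core on either strand, against 5.82% of 32851 promoters of the same length. These were Ccl9, Ccl20, Cxcl1, Cxcl2, Cxcl3, Cxcl9 and Cxcl10, of which Ccl9 and Cxcl1 were detected in 6 or more libraries. The core of the interferon-stimulated response element, GAAANNGAA on either strand, was in 7 (23.3%) against 8.56%, and the GAS motif, TTCNNNGAA, in 2 (6.67%) against 8.3%. No matches of different motifs overlapped in the members' windows. A match is a description of letters and not of a bound site.

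The interferon-induced ligands of CXCR3, which draw activated T cells and NK cells, were at or near background. Cxcl9 gave raw counts of 5 to 18 and Cxcl10 of 10 to 17, with no library above its limit. Cxcl11 passed in 1 PLX+PTX library, and RefSeq lists this gene as a transcribed pseudogene in the build used.

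Of 9 receptors, only Cx3cr1 was widely detected. It gave 196 and 156 scaled counts in PTX, 184 and 267 in PLX+PTX, and 192, 114 and 158 in R. It gave 130.2, 90.5 and 168 in NR and 126 and 57.8 in PLX+PTX+aPD-L1, the last below its limit. Both PLX+PTX libraries were above those of PLX+PTX+aPD-L1 and of NR and overlapped PTX and R. The monocyte receptor Ccr2 passed in 2 libraries. The T cell receptors Ccr4, Cxcr3 and Cxcr6, the gut-homing Ccr9, the neutrophil receptor Cxcr2 and the B cell receptor Cxcr5 passed in none, with at most 21 raw counts in any library. In whole tumours, fewer cells of a type and less RNA per cell cannot be told apart.

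**Figure D2:**
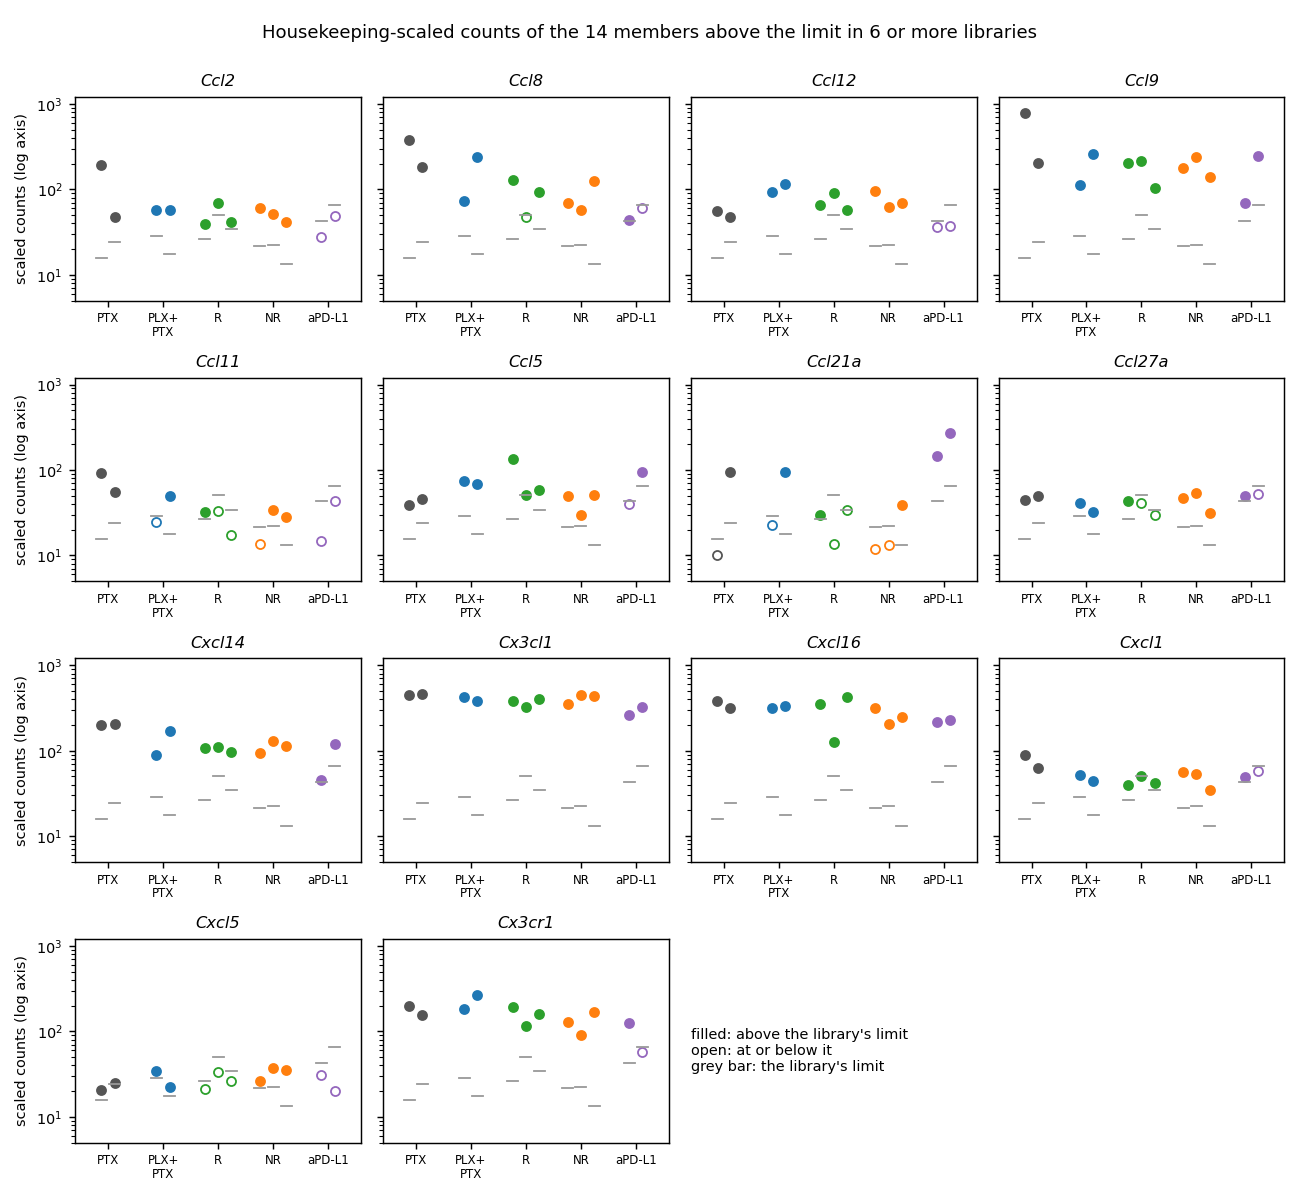
Scaled counts (log axis) of the 14 members above the limit in 6 or more libraries, 1 panel per gene and 1 point per library, with groups on the horizontal axis (aPD-L1 stands for PLX+PTX+aPD-L1). Filled points lie above the library's detection limit, drawn as a grey bar, and Ccl21a is the panel in which both PLX+PTX+aPD-L1 points, at 146 and 269, lie above all others.

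For the tests, a probe needed 2 libraries with 20 raw counts or more, which 30 of 42 members and 615 of all 750 probes had. Left out were Ccl24, Ccl26, Ccl3, Ccl1, Cxcl9, Cxcl10, Ccr4, Ccr9, Cxcr2, Cxcr3, Cxcr5 and Cxcr6. No member passed in 5 of the 6 comparisons, and 1 passed in the sixth. Across all 5 groups together, 0 of 30 members differed by edgeR's quasi-likelihood test, with the smallest adjusted p = 0.107 for Ccl20, against 2.93% of all tested probes. At an unadjusted p under 0.05 there were 8 members, against 14.1% of all tested probes. DESeq2 called 3 (Ccl12, Ccl21a and Ccl8) and limma on the deposited log2 values 2 (Ccl19 and Cxcl11).

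Adding the CSF1R inhibitor to PTX left no member past the threshold. Of the 6 tested ligands of the monocyte-attracting and myeloid groups, Ccl2, Ccl7, Ccl8, Ccl6 and Ccl9 had a fold change below 0 and Ccl12 one above it. Mean scaled counts in PLX+PTX and PTX were 56.8 ± 0.269 and 120.1 ± 102 for Ccl2, 187 ± 103 and 495 ± 409 for Ccl9, and 104 ± 16.1 and 51.7 ± 5.48 for Ccl12 (SD, n = 2 each). For each of the 5 below 0, the highest value of these 4 libraries was in PTX replicate 1, and PTX replicate 2 lay below at least 1 PLX+PTX library. The summed level of PTX replicate 1 for 7 macrophage and monocyte markers was also the highest of the 4 libraries, at 2675 scaled counts against 1675 in PTX replicate 2 and 1452 to 1577 in PLX+PTX. Cd14 made up 1663 of the 2675, and Csf1r, at 320 against 133 in replicate 2, was also highest there, and the part of this in the chemokine values was not tested.

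The genes of smallest p were Ccl12 (log2 fold change 0.998, SE 0.34), Cxcl11 (0.90, SE 0.38) and Xcl1 (1.10, SE 0.49), all with an adjusted p of 0.996 by edgeR's quasi-likelihood test. Along chromosome 11, RefSeq gives the order Ccl2, Ccl7, Ccl11, Ccl12 and Ccl8, and their log2 fold changes were −1.09 (SE 0.55), −1.08 (SE 0.52), −0.998 (SE 0.55), 0.998 (SE 0.34) and −0.84 (SE 0.60). Farther along, those of Ccl5, Ccl9, Ccl6 and Ccl4 were 0.74, −1.40, −0.77 and −0.22, while Ccl1 and Ccl3, also in this stretch, were not tested. Of these tested neighbours, Ccl12 and Ccl5 alone were above 0, and none passed the threshold. In all, 12 of 30 tested members were above 0, with a median of −0.15 beside 0.03 over all 615 probes. None of the 30 was called, against 0% of all tested probes, and 3 had an unadjusted p under 0.05, against 1.95%. DESeq2 and limma on the deposited values also called 0 members.

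R and NR tumours, which had the same drugs in their labels, overlapped for each of the 14 detected members. Their means were 49.9 ± 16.5 and 51.0 ± 9.11 scaled counts for Ccl2, 71.1 ± 17.3 and 75.3 ± 17.2 for Ccl12, and 371 ± 42.7 and 412 ± 52.6 for Cx3cl1 (SD, n = 3 each). Ccl5 averaged 81.1 ± 46.3 in R and 43.8 ± 12.05 in NR (log2 fold change 0.91), with R replicate 1 at 134. The smallest p-values fell on probes near background. Ccl20 averaged 18.1 ± 2.23 in R and 9.65 ± 3.41 in NR (0.93, SE 0.29, adjusted p = 0.614 by edgeR's quasi-likelihood test), Cxcl11 had a log2 fold change of 0.95 (SE 0.32, adjusted p = 0.626), and Cxcl3 one of 1.12 (SE 0.42, adjusted p = 0.644). Ccl20 and Cxcl3 were above the limit in none of the 12 libraries. The 148 probes above the limit in none had a median log2 ratio of R to NR of 0.61, and the part of the background in these differences was not tested.

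By this test 0 of 30 members differed between R and NR, against 0% of all tested probes. An unadjusted p under 0.05 was reached by 5 members, all higher in R, against 6.83% of all tested probes. Above 0 were 19 of 30, with a median of 0.21 beside 0.11 over all probes, and the members' median turned to −0.04 with limma on the deposited values. For the 14 detected members the median was −0.07 beside 0.03 over the 462 probes of the same detection. DESeq2 and limma on the deposited values also called 0 members, and so did edgeR without the 3 libraries of low signal.

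Between R and PLX+PTX no member passed, and most detected members averaged lower in R. Ccl12 averaged 71.1 ± 17.3 scaled counts in R and 104 ± 16.1 in PLX+PTX, and Cx3cr1 155 ± 39.2 and 226 ± 58.7 (SD, n = 3 and 2). Of the 14, 2 had a fold change above 0, beside 169 of the 462 probes of the same detection, with a median log2 fold change of −0.18 beside −0.11 for the 462 probes. The smallest p-values included those of Ccl20 (1.32, SE 0.35) and Ccl17 (0.83, SE 0.33), with an adjusted p of 0.979 each by edgeR's quasi-likelihood test. Of these R and PLX+PTX libraries, 1 of R passed its limit for Ccl17 and none did for Ccl20. The never-detected probes had a median log2 ratio of R to PLX+PTX of 0.31. No member of 30 passed, against 0% of all tested probes, and 3 had an unadjusted p under 0.05, against 2.44%. Neither DESeq2 nor limma on the deposited values called any.

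Between NR and PLX+PTX, 7 of 30 members had a fold change above 0, beside 186 of all 615 tested probes. Cx3cr1 averaged 129.5 ± 38.7 scaled counts in NR and 226 ± 58.7 in PLX+PTX (log2 fold change −0.80, SE 0.37), Ccr2 13.1 ± 3.60 and 24.5 ± 2.35 (−0.89, SE 0.37), and Cxcl11 12.9 ± 3.18 and 22.9 ± 5.26 (−0.82, SE 0.34; SD, n = 3 and 2). These 3 had the smallest p, with an adjusted p of 0.929 by edgeR's quasi-likelihood test. No NR value of Cx3cr1 reached the lower PLX+PTX value of 184. The members' median was −0.37 beside −0.18 over all probes, and the never-detected probes had a median log2 ratio of −0.26. Members past the threshold numbered 0, against 0% of all tested probes, and 2 had an unadjusted p under 0.05, against 3.74%. DESeq2 and limma on the deposited values also called 0. The R and NR comparisons share the PLX+PTX libraries, as does the next one.

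With the PD-L1 antibody added to PLX+PTX, Ccl12 and Cx3cr1 had their lowest group means, and neither passed. Ccl12 averaged 36.7 ± 1.22 scaled counts with the antibody and 104 ± 16.1 without it (SD, n = 2 in both groups). Its log2 fold change was −1.50 (SE 0.37, adjusted p = 0.0614 by edgeR's quasi-likelihood test). Both of the lower values were under their libraries' limits, with raw counts of 27 and 13 against 97 and 132. Ccl12 passed with TMM scaling (adjusted p = 0.0469), with DESeq2 (0.0120) and without R replicate 2 (0.0404), and its log2 fold change was −3.39 after subtraction of the negative controls. Cx3cr1 averaged 91.9 ± 48.3 against 226 ± 58.7 (−1.26, SE 0.43, adjusted p = 0.194). Its log2 fold change was −1.96 without PLX+PTX+aPD-L1 replicate 1 and −0.84 without replicate 2. Ccl25, a probe near background, averaged 34.0 ± 4.97 against 18.5 ± 3.36 (0.85, SE 0.33, adjusted p = 0.228). The other ligands of the monocyte group were also below 0, with log2 fold changes of −0.61 for Ccl2, −0.50 for Ccl7 and −1.61 for Ccl8. The summed macrophage and monocyte markers were 665 and 1338 scaled counts with the antibody against 1452 and 1577 without it. Cd14 accounted for 229.6 and 829 scaled counts of these sums with the antibody and 963 and 851 without it. Csf1r, at 111 and 127 against 134 and 195, and Cd68, at 135 and 133 against 178 and 254, were also lower. Mrc1, at 59.7 and 113 against 49.4 and 100.1, did not share that direction. Neither did Cd163, at 25.2 and 54.9 against 24.7 and 23.5, which was above the limit in 3 of the 12 libraries. Adgre1 and Itgam overlapped. The part of these markers in the chemokine values was not tested.

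Members past the threshold in that comparison numbered 0 of 30, against 2.28% of all tested probes, and limma on the deposited values also called 0. An unadjusted p under 0.05 was reached by 6, of which 3 were higher and 3 lower, against 16.1% of all tested probes. The median over the 30 was −0.03 (0.02 with TMM scaling, 0.01 with limma) beside −0.02 over all probes. Over the 14 detected members it was −0.46 beside −0.13 over the 462 probes, with 3 of 14 above 0. The never-detected probes had a median log2 ratio of 0.71.

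Against the PD-1 antibody groups, Ccl21a was higher in PLX+PTX+aPD-L1. It averaged 207 ± 86.8 scaled counts (SD, n = 2) against 23.6 ± 11.97 over R and NR (SD, n = 6), a log2 fold change of 3.09 (SE 0.69, adjusted p = 0.0178 by edgeR's quasi-likelihood test). Both PLX+PTX+aPD-L1 libraries were above all 6 others and above their own limits, while 2 of the 6 were above theirs. The call rested on PLX+PTX+aPD-L1 replicate 2, without which the log2 fold change was 2.60 and the adjusted p 0.162, and limma on the deposited log2 values gave 2.70 with an adjusted p of 0.0506. Set against PLX+PTX, the log2 fold change of Ccl21a was 1.81 and did not pass. The deposited log2 values of Ccl21a were 7.21 and 7.66 in PLX+PTX+aPD-L1 and 3.98 to 5.67 over R and NR.

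In scaled counts, summed endothelial, fibroblast and B cell markers were also higher in both of those libraries than in any R or NR library. The summed level of 4 endothelial markers, of which 3 were above the limit in 6 or more libraries, was 317 and 780 in PLX+PTX+aPD-L1, against 138 to 253 in R, 127 to 199 in NR and 281 to 298 in PLX+PTX. Kdr, at 167 and 361, was the endothelial marker whose values lay above all of R and NR, while Pecam1 (78.3), Cdh5 (46.5) and Tie1 (25.2) in PLX+PTX+aPD-L1 replicate 1 lay within the R and NR range. The 2 fibroblast markers summed to 81.0 and 159 against 50.9 to 70.9 in R and 41.4 to 62.1 in NR. Pdgfrb, at 66.4 and 144, carried this, and Fap was at 14.6 and 14.4. That of 7 T cell markers, 1 of them so detected, was 131 and 205, against 87.5 to 142 in R, which overlapped, and 73.2 to 82.0 in NR. That of 4 B cell markers, none of them so detected, was 58.4 and 101, against 47.1 to 55.4 in R and 24.4 to 32.3 in NR. None of the B cell markers passed its limit in either library, where the scaled negative controls averaged 21.9 and 32.5 per probe. Raw sums were 44 and 35 for the B cell and 99 and 71 for the T cell markers, within the R values of 24 to 63 and 59 to 161. Those of the endothelial (239 and 270) and fibroblast markers (61 and 55) also lay within R, at 70 to 288 and 36 to 63. The part of these markers in the Ccl21a values was not tested, and neither was that of the low signal of both libraries.

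Ccl19, with a log2 fold change of 1.12 (SE 0.34, adjusted p = 0.0767 by edgeR's quasi-likelihood test), and Ccl12, with −0.99 (SE 0.32, adjusted p = 0.0992), were next by p in that comparison and did not pass. Ccl19 passed without R replicate 2 (adjusted p = 0.0260), but it was above the limit in no library and the never-detected probes had a median log2 ratio of 0.81. The 1 called member of 30 compares with 5.69% of all tested probes called, all of them higher. An unadjusted p under 0.05 was reached by 6 members, 5 higher and 1 lower, against 17.9% of all tested probes. The median of the 30 was 0.10 (−0.02 with TMM scaling, −0.04 with DESeq2 and with limma) beside 0.10 over all probes, and it was −0.27 over the 14 detected members beside −0.02 over the 462 probes. DESeq2 called 2 members, Ccl12 and Ccl21a, and limma on the deposited values 0.

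**Figure D3:**
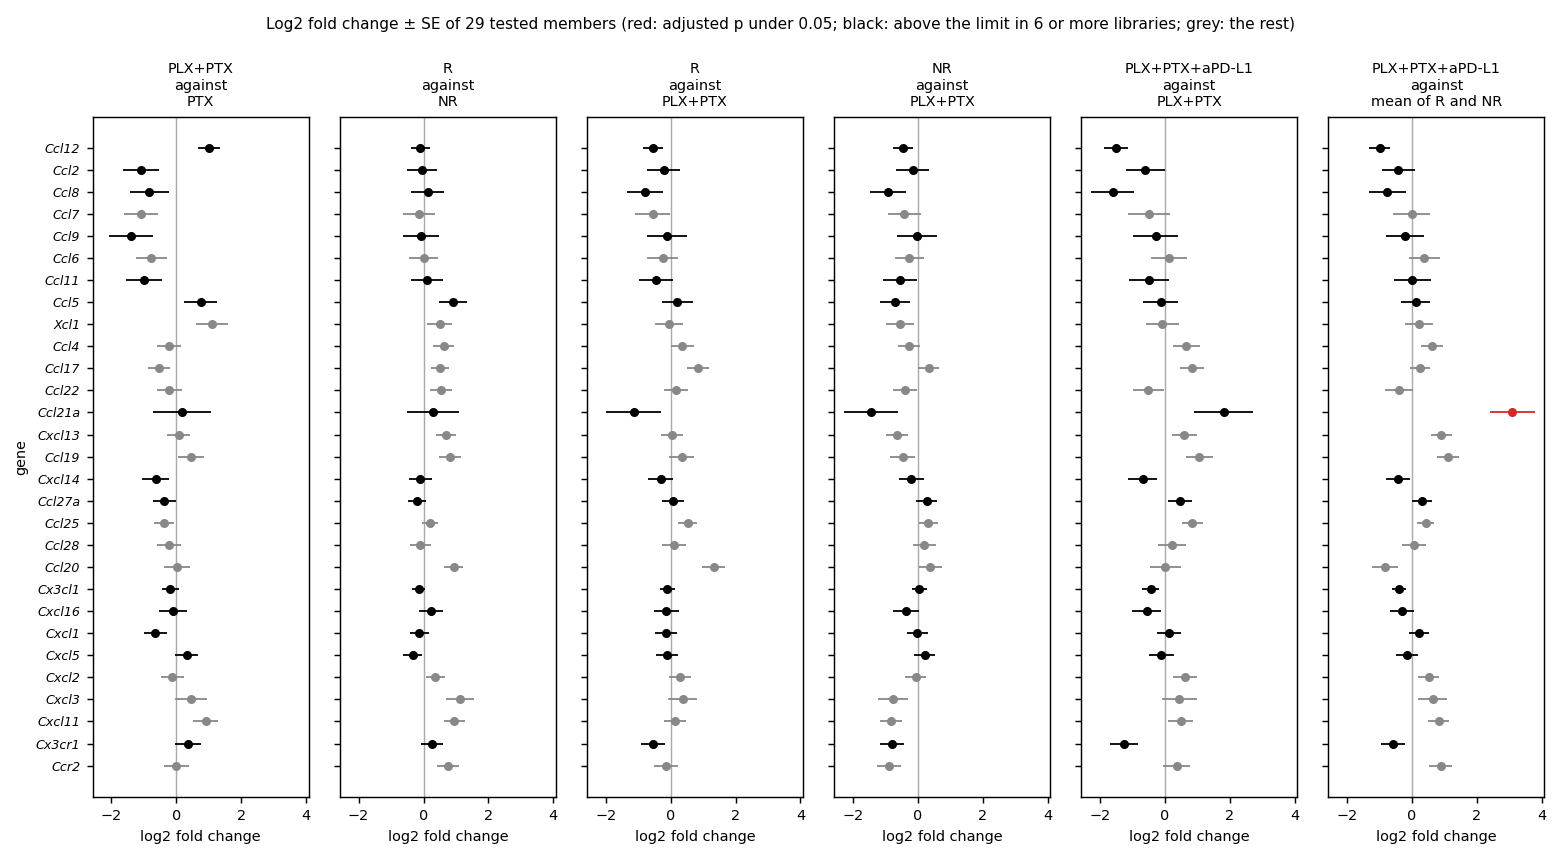
Log2 fold change with SE (horizontal axis) of 29 of the 30 tested members in each of the 6 comparisons, by edgeR's quasi-likelihood fit. The red point, Ccl21a at 3.09 where PLX+PTX+aPD-L1 was set against the PD-1 antibody groups, is the only one past an adjusted p of 0.05, and black points are the other members above the limit in 6 or more libraries.

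Other genes of the pathway were read from lists of downstream signalling, inducers and adhesion. Of 25 genes of signalling downstream of chemokine receptors, 9 were on the panel and 8 were tested, and 0 passed in any comparison. The kinase gene Pik3cg averaged 380.5 ± 131 scaled counts in PLX+PTX and 257 ± 98.6 in PTX, and Stat3, a transcription factor gene, 1767 ± 172 and 2186 ± 149.9 (SD, n = 2 each). Of 15 inducers of chemokine genes, 13 were on the panel and 8 were tested, and 0 passed. Ifng, which induces Cxcl9 and Cxcl10, was above the limit in no library, and neither were these 2 chemokines. Tnf and the NF-kappaB subunit genes Nfkb1 and Rela were above the limit in 6, 12 and 12 libraries.

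Genes of leukocyte adhesion, which act with chemokines on the vessel wall, included called genes in the same comparison as Ccl21a. Of 11 such genes, 9 were on the panel and 7 were tested. Itgb2 and Icam2 were among those that passed, beside 5.69% of all tested probes. Icam1, Vcam1 and Selp, with log2 fold changes of 1.16, 0.95 and 0.56, did not pass, and neither did the integrin gene Itgal, at −0.41. The leukocyte integrin gene Itgb2, at 98.2 and 191 scaled counts in PLX+PTX+aPD-L1 against 45.3 to 59.0 over R and NR, had a log2 fold change of 1.53 (adjusted p = 0.0346), and the endothelial adhesion gene Icam2, at 47.8 and 75.1 against 17.7 to 28.8, one of 1.36 (adjusted p = 0.0156 by edgeR's quasi-likelihood test). The scaled PLX+PTX+aPD-L1 values of both genes did not overlap those of R and NR, as for Ccl21a. Raw counts did overlap, at 74 and 66 against 23 to 75 for Itgb2 and 36 and 26 against 9 to 31 for Icam2. The never-detected probes had a median log2 ratio of 0.81 in this comparison, and the part of scaling in these differences was not tested.

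**Figure D4:**
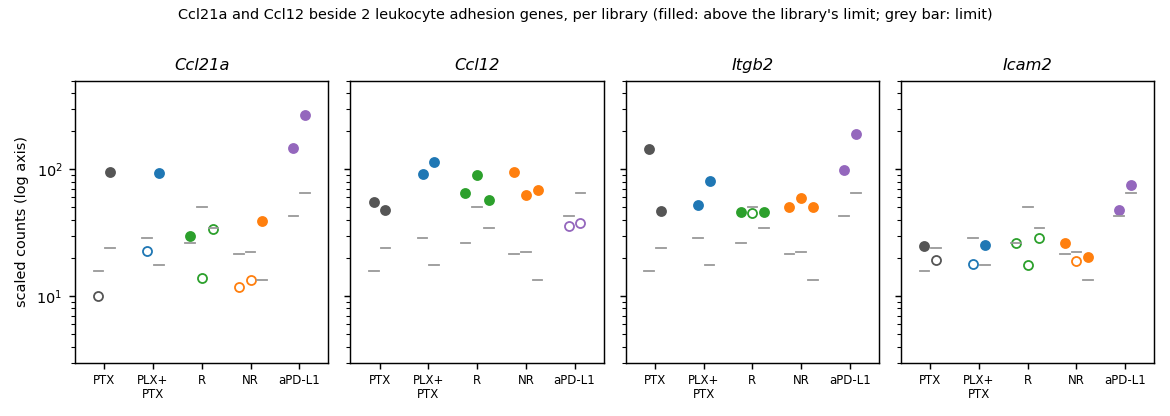
Scaled counts (log axis) per library of Ccl21a, Ccl12 and the adhesion genes Itgb2 and Icam2, with groups on the horizontal axis (aPD-L1 stands for PLX+PTX+aPD-L1), filled points above the library's detection limit and grey bars at the limit. The PLX+PTX+aPD-L1 points are above those of R and NR for Ccl21a, Itgb2 and Icam2, and below them for Ccl12, where they are open.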

How the data were processed

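The authors deposited raw nCounter counts of 784 probes (750 endogenous, 20 housekeeping, 6 positive-control and 8 negative-control, per the file headers) and a table of log2 values. DESeq2 and limma stand in the submitters' processing notes with no role attached, and no source used here says how the deposited log2 values were made. Counts were scaled by the geometric mean of the housekeeping probes. Endogenous probes with 20 or more counts in at least 2 libraries entered a fit of 5 group means in edgeR 4.0.16 (R 4.3.3; quasi-likelihood test). Benjamini-Hochberg adjustment ran over all 615, and a probe passed at an adjusted p under 0.05. The procedure was checked on simulated counts. Depth was 98741 to 531086 endogenous counts per library. No libraries of a group matched within sampling noise (lowest chi-square per degree of freedom 13.2).

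Alternatives were TMM scaling, DESeq2 1.42.0, limma 3.58.1 on the deposited log2 values, no filter, a stricter filter (above the limit in 6 or more libraries), subtraction of the negative controls, the libraries of low signal left out, and each library left out in turn. Members above the limit in 6 or more libraries or past the threshold were given per library, and in each comparison the called members and the 3 of smallest p were named. A member and another gene that these rules take are not reported here. Members and lists were chosen with earlier results of these data known. Members with a fold change outside that rule are chromosome neighbours or relatives named after their values were seen. Replicate numbers follow deposition order. Genes were matched to RefSeq (GRCm38.p6) by symbol, 42 of 42, and 41 also by accession, Cxcl11 being the exception.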

Additional observations from a re-analysis of the deposited data

How the results depend on the processing

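Of the log2 fold changes of the named members, none reversed under the alternatives that ran a test. Subtraction of the negative controls ran no test, and its values were compared with the SE of the edgeR fit. Of all alternative values, 303 were unchanged, in direction and side of the threshold or, after subtraction, by staying within that SE. A further 5 passed where the edgeR fit did not, and 2 no longer passed. Subtraction gave 18 values, and 14 of them, the larger part, moved beyond that SE. For members that had not passed, a change of sign after subtraction was not counted separately. Members past the threshold numbered 0 in the 4 comparisons without PLX+PTX+aPD-L1 under every alternative run, leaving out each library included. With DESeq2 they numbered 3 for any difference among the groups (0 with edgeR), 1 where PLX+PTX+aPD-L1 was set against PLX+PTX (0) and 2 where it was set against the mean of R and NR (1). With TMM scaling there was 1 where PLX+PTX+aPD-L1 was set against PLX+PTX. Limma on the deposited log2 values gave 2 for any difference and 0 against the mean of R and NR. With each library left out in turn, the members called ranged from 0 to 2 for any difference, with Ccl21a and Ccl7 called without PTX replicate 2. They ranged from 0 to 1 in PLX+PTX+aPD-L1 against PLX+PTX, with Ccl12 called without R replicate 2. They ranged from 0 to 2 against the mean of R and NR. In the last, 0 were called without PLX+PTX+aPD-L1 replicate 2, Ccl21a and Cxcl3 without its replicate 1, and Ccl19 and Ccl21a without R replicate 2. Over all genes, any difference gave 18 calls with edgeR, 40 with DESeq2, 2 with the stricter filter and 8 to 21 with each library left out. PLX+PTX+aPD-L1 against PLX+PTX gave 14, 36, 2 and 0 to 18, and 0 with limma. Against the mean of R and NR there were 35, 53, 11 and 16 to 53, with 55 without the filter and 54 with limma, and R against NR gave 3 with limma and 0 with edgeR. The median of the tested members changed sign in 4 comparisons. In R against NR it was 0.21 with edgeR, −0.04 with limma, −0.07 with the stricter filter and −0.24 after subtraction. Against the mean of R and NR it was 0.10, −0.04, −0.27 and −0.13, with −0.02 under TMM scaling and −0.04 with DESeq2. For PLX+PTX+aPD-L1 less PLX+PTX it ran from −0.58 to 0.37, and in R against PLX+PTX from −0.58 to 0.05. The causes of these changes were not tested. Without the 3 libraries of low signal no comparison with PLX+PTX+aPD-L1 could be made, and any difference among the groups was not run there. No paired analysis was possible because the labels give the samples no replicate numbers shared between groups. Of the 42 members, 28 were above the limit in fewer than 6 libraries.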
